A study of Mus musculus with 13 samples.

Results

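The baseline transcriptome of isolated glomeruli was described in 5 mice that had received control IgG, chosen as the 5 control libraries among the 13 libraries of a bulk RNA-Seq experiment on THSD7A-associated membranous nephropathy (MN). The other 8 libraries came from mice that had received anti-THSD7A IgG, 4 of them collected on day 1 and 4 on day 5. All mice were wild-type Balb/c, and the methods describe adult male mice. Each control mouse received 2 mg of control IgG, rabbit preimmune IgG, as an intraperitoneal injection, and each MN mouse the same amount of rabbit anti-THSD7A IgG. Control mice of both days formed 1 group, and the day on which each was collected was not given, so a control library was not matched to a day. Glomeruli were obtained by perfusing the kidneys with magnetic beads, digesting the tissue with collagenase and collecting the bead-filled glomeruli with a magnet, and 1 library was made per mouse. Mice that had received no IgG were not analysed here, and the baseline is therefore that of mice exposed to rabbit IgG.

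A glomerulus is a tuft of capillaries. Its fenestrated endothelium and the podocytes, whose interdigitating foot processes are joined by the slit diaphragm, lie on either side of the glomerular basement membrane (GBM), and mesangial cells hold the capillary loops together. Tubules are not part of the tuft, and transcripts of proximal or distal tubule cells in a glomerular preparation mark tubule fragments or tubule RNA carried along. In bulk samples, fewer cells of a type and less RNA per cell cannot be told apart, and the sums of marker transcripts given here are not cell numbers.

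The values were TPM, relative transcript abundances corrected for transcript length and library total, a measure that allows levels of different genes to be compared within a library. The table listed 35967 gene symbols, and 46.9 to 48.3% of them were at 0 in a control library. Between 13765 and 13921 genes reached 1 TPM in each control library, and 13910 genes had a mean of at least 1 TPM over the 5. Spearman's rho between pairs of control libraries lay between 0.973 and 0.987 across those 13910 genes, which are not independent replicates. Read depth is unknown, so no counting error can be given for a single value, and an exact 0 may be a failed estimate. The 5 libraries were not interchangeable: replicate 5 carried the most proximal tubule transcripts, replicate 2 the fewest podocyte transcripts, and replicate 4 the lowest levels of Y-linked genes, and results that rest on them are given with and without them where they were tested.

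The defining markers of the glomerulus were present at high levels in every control library. Podxl, which encodes the podocyte surface sialomucin podocalyxin (GRCm39 chr6:31496418-31540924, minus strand), was the most abundant podocyte marker. Its level was 3237, 2508, 3183, 3004 and 3198 TPM in replicates 1 to 5, which placed it at rank 23 of all genes by the mean. Nphs1, which encodes the slit diaphragm protein nephrin (chr7:30157740-30186675, plus strand), stood at 735, 556, 806, 845 and 884 TPM, rank 147. Both podocyte genes were lowest in replicate 2. Ehd3, a membrane-trafficking gene known for its expression in glomerular endothelium (chr17:74111129-74139089, plus strand), stood at 1814, 2109, 1903, 1710 and 1749 TPM, rank 44. Pdgfrb, the receptor by which mesangial cells respond to PDGF-B, stood at 313, 296, 275, 275 and 198 TPM, rank 557, with the lowest value in replicate 5.

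Tubule markers were also detected in every control library. Lrp2, which encodes the proximal tubule endocytic receptor megalin (chr2:69254682-69416409, minus strand), stood at 9.43, 6.60, 14.2, 11.8 and 27.3 TPM, rank 8833. Umod, which encodes uromodulin of the thick ascending limb (chr7:119061934-119078505, minus strand), stood at 305, 185, 280, 374 and 347 TPM, rank 488, above the mean level of Pdgfrb. The mean Lrp2 level was 13.9 TPM beside a mean Nphs1 level of 765 TPM, and the ranges did not overlap. The ranges of Umod and Pdgfrb did overlap, so that these neighbors in the ranking did not differ beyond their spread.

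The transcriptome was headed by mitochondrial transcripts, ribosomal protein transcripts and pseudogenes. The most abundant gene held 1.02% ± 0.20 (SD, n = 5) of the listed TPM, the 10 most abundant 7.83% ± 0.921, the 30 most abundant 14.6% ± 1.36, the 100 most abundant 25.2% ± 1.41 and the 1000 most abundant 56.3% ± 0.83. Of the 30 most abundant genes, 11 were encoded by the mitochondrial genome, 4 encoded ribosomal proteins and 6 were annotated as pseudogenes, 4 of which are near-identical to mitochondrial genes. Among the remaining genes were Tmsb4x, encoding the actin-sequestering peptide thymosin beta 4 (5209 TPM), Igfbp7, encoding a secreted IGF-binding protein (4967 TPM), Plat, encoding tissue plasminogen activator (4654 TPM), and Igfbp5 (2478 TPM). By biotype, protein-coding genes held 91.6% of the listed TPM, pseudogenes 5.74%, symbols without a match in the annotation 2.59%, long noncoding RNA genes 0.0719% and immunoglobulin or T cell receptor segments 0.0153%. The pseudogene share includes the 4 that are near-identical to mitochondrial genes.

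**Figure D1:**
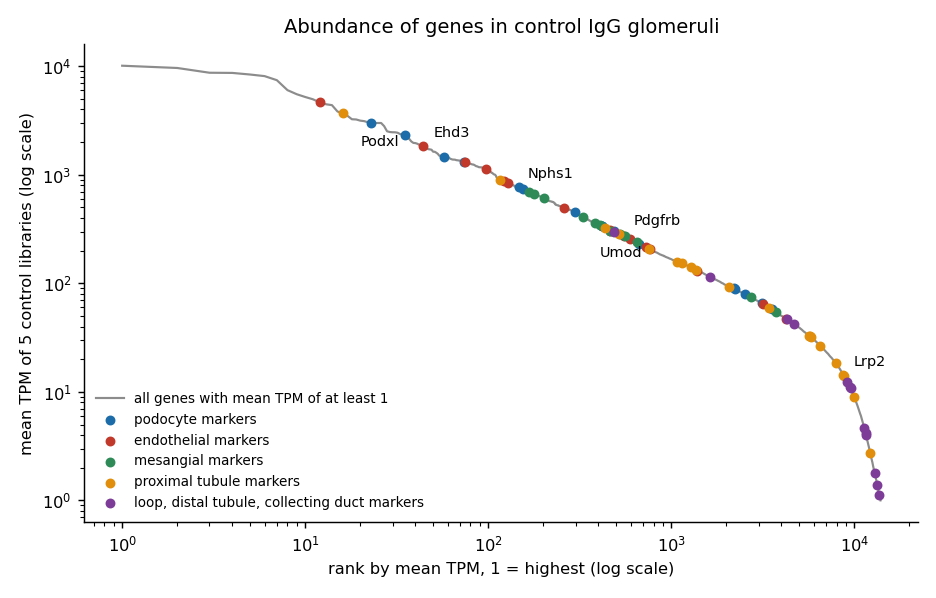
Genes of the control libraries ranked by mean TPM (x axis, rank, log scale) against their TPM (y axis, log scale); the line joins all genes with a mean of at least 1 TPM, and points mark the cell type markers, colored by class. Podxl, Ehd3, Nphs1, Umod and Pdgfrb lay among the first 557 genes, whereas Lrp2 lay at rank 8833.

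The gene at rank 1 was Gm29216, an unprocessed pseudogene in a nuclear copy of mitochondrial DNA on chromosome 1 (GRCm39 chr1:24654787-24655278, minus strand). It stood at 9044, 7832, 9336, 11860 and 12499 TPM in replicates 1 to 5. The mitochondrial gene mt-Co1, which encodes subunit 1 of cytochrome c oxidase, stood at 7832, 7309, 8740, 9977 and 9543 TPM. Gm29216 was thus listed above mt-Co1 in each of the 5 libraries. The annotated transcripts of both genes were identical at 482 of 483 aligned bases. The stretch around the single difference is shown because, within the aligned part, the pair differs only there; the capital marks the base that differs, in 5′ to 3′ direction, written as the substitution A4T with the base of mt-Co1 first and positions counted from 1 at the start of each stretch. The stretch of Gm29216 lies at chr1:24655210-24655269 on the minus strand and that of mt-Co1 at chrM:6390-6449 on the plus strand.
Gm29216: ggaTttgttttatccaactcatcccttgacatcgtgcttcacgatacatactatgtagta
mt-Co1: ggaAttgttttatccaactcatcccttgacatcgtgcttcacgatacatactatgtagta

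The same held for other leading genes. Gm28661 was identical to mt-Co2 at 681 of 681 bases, Gm28437 to mt-Co3 at 783 of 783, and Gm28438 to mt-Nd3 at 344 of 345. The share of the summed level that was assigned to the pseudogene ranged from 58.4 to 78.2% between control libraries for Gm28661 with mt-Co2 and from 26.1 to 38.2% for Gm28437 with mt-Co3. The log2 SDs of Gm28661 and mt-Co2 over the 5 libraries were 0.31 and 0.41, and that of their sum was 0.23. Gm12895 and Gm12896, processed pseudogenes identical at 224 of 224 bases, had the same value in every library, with a mean of 3002 TPM each. The separate levels of these genes are therefore uncertain. In all, 16 of the 30 most abundant genes had another annotated gene with at least 90% identity over at least 50% of their longest transcript.

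Several other leaders of the ranking were steady between mice. Eef1a1, which encodes the elongation factor that delivers aminoacyl-tRNA to the ribosome, stood at 3249 ± 85.2 TPM (SD, n = 5), and Rplp1, a protein of the ribosomal stalk, at 2465 TPM with a log2 SD of 0.03. Together the 13 mitochondrial genes held 6.47% ± 0.831 of the listed TPM and the cytosolic ribosomal protein genes 7.60% ± 0.259. The mitochondrial share does not count the near-identical pseudogenes, whose separate levels are uncertain. Kap, which encodes the androgen-regulated protein of the proximal tubule, had the highest spread of the 30 most abundant genes: it stood at 2617, 1945, 3328, 3155 and 7313 TPM, rank 16. Its value in replicate 5 exceeded those of all other control libraries, and its log2 SD was 0.74. Gpx3, the secreted glutathione peroxidase of the proximal tubule, followed at rank 39 with 1214, 1151, 1712, 2127 and 3631 TPM and a log2 SD of 0.70, also highest in replicate 5.

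The first 100 genes held 9 of the cell type markers. Among them were the podocyte genes Podxl, Synpo and Sema3g, the endothelial genes Plat, Ehd3, Emcn and Eng, and the proximal tubule gene Kap. Synpo encodes synaptopodin, an actin-associated protein of foot processes, and stood at 1552, 1350, 1518, 1476 and 1361 TPM. Replicate 2 was lowest for Synpo but nearly level with replicate 5. Sema3g, which encodes a secreted semaphorin, stood at 1446, 1107, 1268, 1294 and 1481 TPM, again with replicate 2 lowest. No mesangial marker was among the first 100 genes, and the highest of them was Sfrp2, a secreted Wnt-binding protein, at 691 TPM and rank 168.

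Cell type markers were summed by class to describe the make-up of the preparation. The 16 endothelial markers summed to 12455, 15028, 13277, 12216 and 11776 TPM in replicates 1 to 5, 1.30% ± 0.131 of the listed TPM (SD, n = 5). The 16 podocyte markers summed to 12636, 9275, 12241, 11701 and 12565 TPM, 1.18% ± 0.139. The ranges of both classes overlapped, and endothelial exceeded podocyte sums in replicates 2, 3 and 4. The 12 mesangial markers summed to 4621, 4740, 4657, 4237 and 3287 TPM, 0.433% ± 0.0609, with replicate 5 lowest. The 20 proximal tubule markers summed to 4559, 3885, 5738, 5638 and 11759 TPM, 0.635% ± 0.315. The 19 markers of the loop of Henle, distal tubule and collecting duct summed to 551, 346, 530, 691 and 668 TPM. In replicates 1 and 2 the proximal tubule sum lay below the mesangial sum, and in the other 3 above it.

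Expressed as shares of these 5 sums together, podocyte markers made up 32.6% ± 3.17, endothelial markers 36.4% ± 5.64, mesangial markers 12.2% ± 2.32, proximal tubule markers 17.2% ± 7.04 and distal markers 1.55% ± 0.35 (mean ± SD, n = 5). The 3 glomerular classes together held 81.2% on average, from 69.0% in replicate 5 to 87.3% in the highest library. These shares depend on which genes were listed: Podxl alone gave 25.5 to 27.0% of the podocyte sum, Plat 33.5 to 39.1% of the endothelial sum, Sfrp2 12.3 to 18.8% of the mesangial sum, Kap 50.1 to 62.2% of the proximal tubule sum and Umod 52.0 to 55.3% of the distal sum. The proximal tubule sum also includes Cyp4b1, an abundant member that did not follow the rest of its list, as given below. Cyp4b1 made up more of that sum in replicate 2 than in any other control library.

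**Figure D2:**
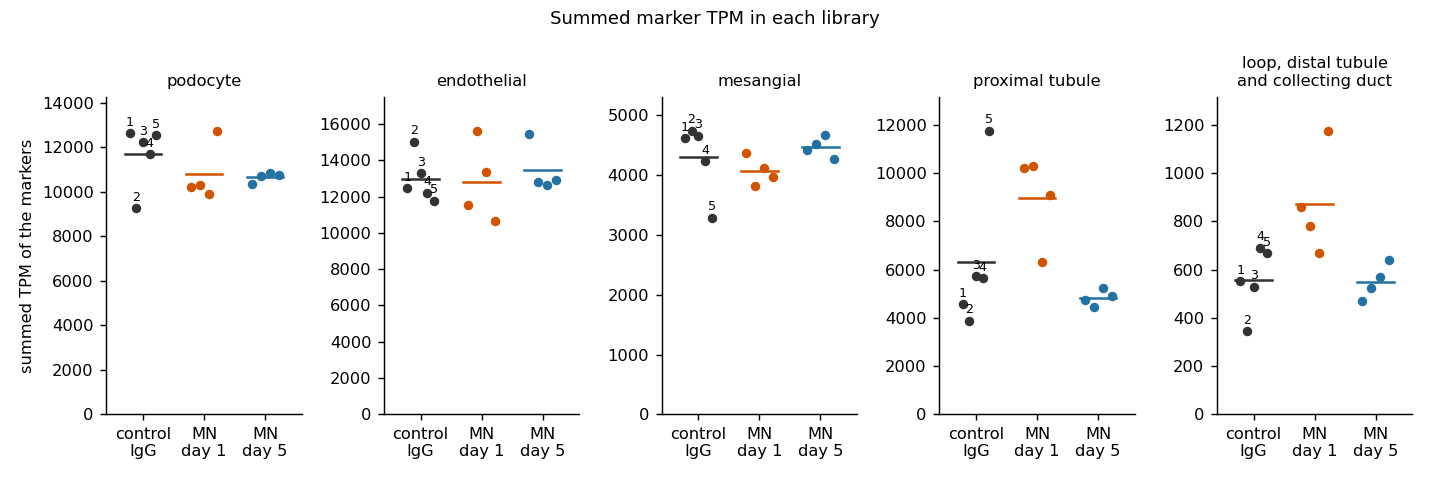
Summed TPM of 5 cell type marker lists (y axes, linear from 0, 1 panel per list) in the 13 libraries, 1 point per mouse, grouped as control IgG, MN day 1 and MN day 5, with horizontal bars at the group means and the control replicate numbers beside the points. The control proximal tubule sums ran from 3885 to 11759 TPM, replicate 5 lying above the other 4 control libraries, while control endothelial sums stayed between 11776 and 15028 TPM.

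Marker sums of other cell types lay below those of the podocyte, endothelial and mesangial lists. Vascular smooth muscle and renin cell markers, including Ren1 and Acta2, summed to 657 to 1056 TPM with replicate 5 lowest. Their sum exceeded the distal sum in every control library but replicate 5. Cnn1, a smooth muscle contractile protein, stood at 3.90 TPM in replicate 5 against 11.9 to 16.3 TPM in the other 4. The 17 macrophage and leukocyte markers summed to 68.7 to 114 TPM. Of these markers, 9 had a mean of at least 1 TPM. Others lay near 0: Adgre1 of macrophages and Cd3e of T cells averaged 0.13 and 0.30 TPM. Cd3e stood at 0.986 TPM in replicate 4 against 0.040 to 0.195 TPM in the other control libraries. Erythroid transcripts, mostly globins, summed to 207 to 472 TPM with replicate 4 highest. Fibroblast markers summed to 161 to 203 TPM, adrenal markers to 4.33 to 5.53 TPM and markers of the parietal epithelium of Bowman's capsule to 11.5 to 15.4 TPM. The 5 adipocyte markers stayed near 0 except in replicate 2, where they summed to 7.01 TPM, 5.08 TPM of which was Cfd, the gene of the adipocyte-secreted protease adipsin.

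Proximal tubule transcripts differed between control mice as a group. All 20 proximal tubule markers were highest in replicate 5, with a median deviation of 1.13 on the log2 scale from each gene's mean over the 5 control libraries, and 17 of 20 were lowest in replicate 2, with a median deviation of -0.74. Slc34a1, the sodium-phosphate cotransporter of the brush border, stood at 140, 115, 189, 210 and 388 TPM, and Pck1, which encodes the gluconeogenic enzyme PEPCK, at 101, 88.8, 102, 167 and 329 TPM. Cyp4b1, a cytochrome P450, differed least in the list, with 771, 990, 844, 841 and 1073 TPM. Its log2 SD was 0.21, whereas those of the other 19 members were at least 0.5. The mesangial markers moved the other way in the same library: all 12 were lowest in replicate 5, with a median deviation of -0.28, as were 13 of the 16 endothelial markers. In replicate 5 podocyte markers were highest for 11 of 16 genes. Over all 13910 genes, replicate 5 was highest for 23.9% and lowest for 25.6%, and replicate 2 was highest and lowest for 25.0% each.

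Podocyte transcripts were lowest in replicate 2 throughout. All 16 podocyte markers had their lowest level there, with a median deviation of -0.38 on the log2 scale, while 11 of 16 endothelial markers were highest in the same library, with a median deviation of 0.15. Wt1, the transcription factor that maintains podocyte identity, stood at 366, 260, 369, 308 and 367 TPM, and Ptpro, a receptor tyrosine phosphatase of the foot process, at 99.3, 66.1, 99.6, 83.2 and 94.2 TPM. Kdr, the VEGF receptor of the endothelium, stood at 797, 975, 822, 869 and 694 TPM and Eng, the TGF-beta coreceptor endoglin, at 1024, 1444, 1121, 1122 and 918 TPM. Replicate 2 was lowest for both podocyte genes and highest for both endothelial genes. The adipocyte sum of 7.01 TPM was also highest in that library; its part in these differences was not tested.

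**Figure D3:**
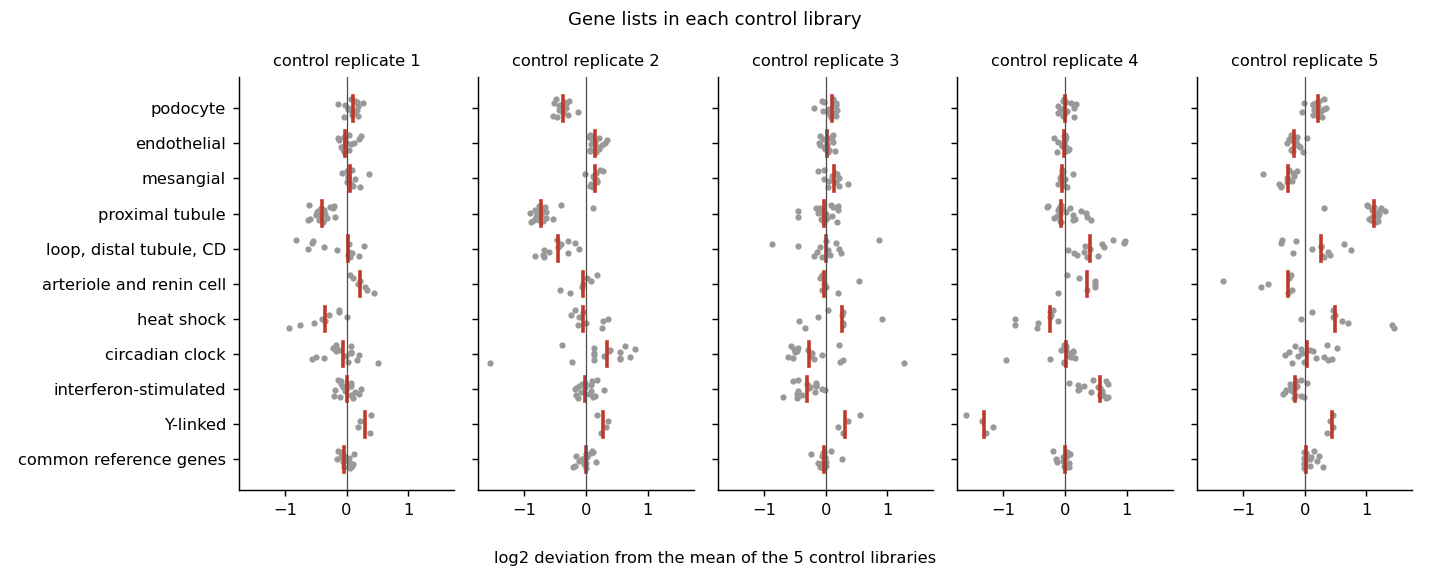
Deviation of each gene from its mean over the 5 control libraries (x axes, log2 scale), with 1 gray point per gene, gene lists in rows and control replicates 1 to 5 in panels; red bars are the medians of the lists. Replicate 5 showed 1.13 for proximal tubule and -0.28 for mesangial markers, and replicate 2 showed -0.38 for podocyte and -0.74 for proximal tubule markers.

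The antigen gene Thsd7a itself followed the podocyte markers. THSD7A is a large transmembrane protein of the podocyte foot process and the target of the antibodies used in the model. Its transcript (chr6:12311609-12749439, minus strand) stood at 185, 116, 190, 174 and 206 TPM, rank 941, with a log2 SD of 0.35. Replicate 2 was lowest and separate from the other 4. Of the 10 podocyte genes that the study lists as changed in MN, 9 were lowest in replicate 2. Magi2, a slit diaphragm scaffold, stood at 136, 85.0, 152, 138 and 145 TPM, whereas Vim, the intermediate filament vimentin, which other glomerular cells also express, was highest there at 739 TPM against 577 to 681 TPM.

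GBM genes split by the chains they encode. The mature GBM contains a network of alpha 3, alpha 4 and alpha 5 chains of type IV collagen made by podocytes, while alpha 1 and alpha 2 chains are made by mesangial and endothelial cells. Col4a3 stood at 315, 206, 305, 314 and 364 TPM, and Col4a4 (mean 153 TPM) and Col4a5 (mean 49.8 TPM) were likewise lowest in replicate 2. Col4a1 stood at 307, 287, 370, 304 and 187 TPM and Col4a2 (mean 183 TPM) was likewise lowest in replicate 5. The laminin genes of the GBM varied less: Lamb2 stood at 348, 346, 336, 376 and 317 TPM, and the log2 SDs of Lama5, Lamb2 and Lamc1 were 0.08, 0.07 and 0.08. The median log2 SD of the 12 GBM genes was 0.18, beside 0.16 over all 13910 genes.

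Replicate 4 differed in another set of genes. The 4 Y-linked genes Ddx3y, Kdm5d, Uty and Eif2s3y, which encode housekeeping regulators expressed in male tissue, summed to 37.6 TPM in replicate 4 against 123 to 134 TPM in the other control libraries. Ddx3y stood at 52.9, 48.6, 49.2, 16.3 and 49.8 TPM and Eif2s3y at 51.2, 44.4, 57.2, 12.4 and 51.3 TPM. Relative to the mean of the other 4 control libraries, replicate 4 stood at 0.325 for Ddx3y and 0.243 for Eif2s3y. The sums in the 8 MN libraries ran from 84.0 to 146 TPM. Eif2s3y had a lowest value of 6.94 TPM on day 5, below its level in replicate 4. In the MN libraries Ddx3y did not fall below 47.6 TPM and Uty not below 12.4 TPM. The methods describe male mice only, Xist was not analysed here, and whether replicate 4 is a mixed or swapped sample could not be checked. Without it, limma called 6 genes on day 1 and 410 on day 5, in place of 13 and 460. S100g, which encodes the vitamin D-dependent calcium-binding protein calbindin-D9k, stood at 30.1, 29.4, 55.0, 267 and 36.4 TPM. Replicate 4 was the single high library for S100g. Interferon-stimulated genes were highest in replicate 4 for 14 of the 17 members with a mean of at least 1 TPM, compared with 16.3% of all 13910 genes. Their sum was 866 TPM there against 530 to 651 TPM elsewhere, and Isg15, the ubiquitin-like antiviral protein, stood at 84.4 TPM against 42.0 to 57.9 TPM. Whether these differences in replicate 4 are linked was not tested.

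The spread among control libraries was measured for each gene as the SD of log2(scaled TPM + 0.5) over the 5 mice. The median over 13910 genes was 0.16. An SD of at least 1 was reached by 374 genes (2.69%) and one of at least 0.5 by 1400 genes (10.1%). Spread was highest at low abundance: the median SD was 0.31 for genes with a mean of 1 to 10 TPM, 0.13 from 10 to 100, 0.10 from 100 to 1000 and 0.10 above 1000.

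The genes of highest spread were mainly pseudogenes listed at 0 in some libraries. Of the 374 genes, 301 (80.5%) were at 0 in at least 1 control library, compared with 0.155% of the other genes. A 0 beside a mean of at least 1 TPM itself raises the log2 SD, so this contrast follows in part from how the genes were selected. By biotype 229 were pseudogenes, which is 36.6% of the 626 pseudogenes with a mean of at least 1 TPM. Another 74 were protein-coding, which is 0.575% of 12860, and 29 were immunoglobulin or T cell receptor segments, which is 82.9% of 35. Among the 30 genes with the highest SD, 29 had a Gm symbol or a pseudogene suffix or both, and 28 were at 0 in at least 1 control library. The exception by symbol was Igkv13-84, an immunoglobulin kappa variable segment at 20.5 TPM in replicate 2 and at 0 in the other 4.

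**Figure D4:**
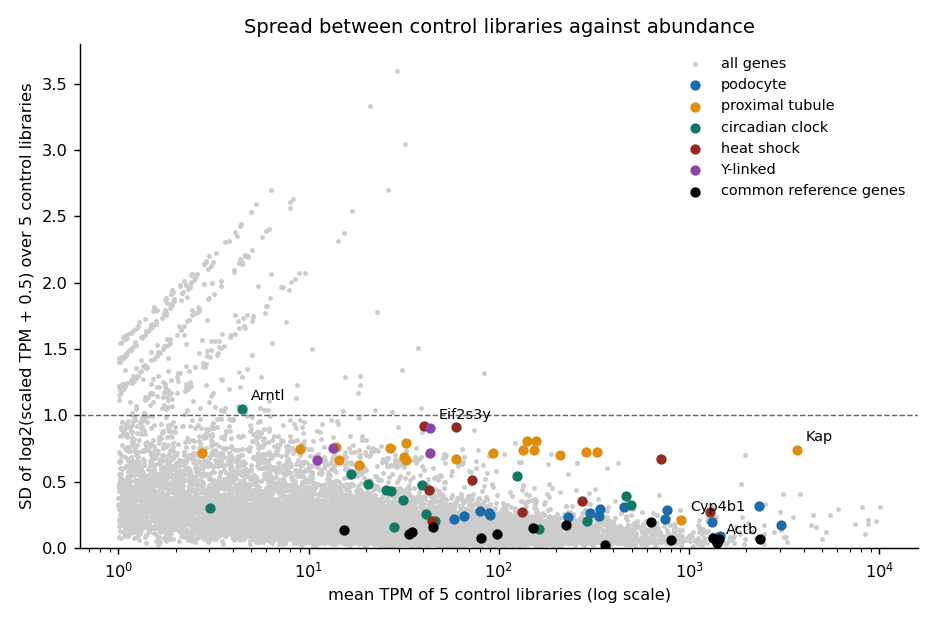
SD of log2(scaled TPM + 0.5) over the 5 control libraries (y axis) against mean control TPM (x axis, log scale), 1 point per gene for 13910 genes, with 6 gene lists in color and a dashed line at an SD of 1. Of the 374 genes at or above the line 354 had a mean below 10 TPM, and the proximal tubule markers, Cyp4b1 excepted, lay between 0.63 and 0.81.

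For high-spread genes with a near-identical copy, levels of the gene and of its copies were also summed. Gm6565, a processed pseudogene with the same sequence over 438 of 438 bases as Ube2v2, which encodes a variant ubiquitin-conjugating enzyme, had the highest SD, 3.60: it stood at 61.1, 31.3 and 52.7 TPM in replicates 2, 4 and 5 and at practically 0 in replicates 1 and 3. Its copy Gm6361 stood at 80.0, 49.2 and 27.6 TPM in replicates 1, 3 and 4, with an SD of 3.05. High libraries of Gm6565 were in part the low libraries of Gm6361, and the sum over Gm6565 and its 5 copies in the table, of which Gm6565 made up 26.7% and Gm6361 29.4%, had an SD of 0.20. Of the 30 genes, 24 had an annotated transcript and 17 of these had a copy in the table. For 10 of the 17 the gene was at most 6.13% of its sum, so that the more abundant copies set the sum, whatever the gene did, and its low SD says nothing about the gene. The 4 genes that made up 23.2 to 31.4%, Gm6565, Gm6361, Gm10337 and Mup-ps24, had SDs of 2.23 to 3.60 alone and 0.20 to 0.67 as sums. The 3 genes that made up 91.0 to 100% of their sums, Igkv13-84, Gm15349 and Gm42804, kept SDs of 2.35, 2.21 and 2.04. None of the 10 genes with the lowest SD had such a copy.

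**Figure D5:**
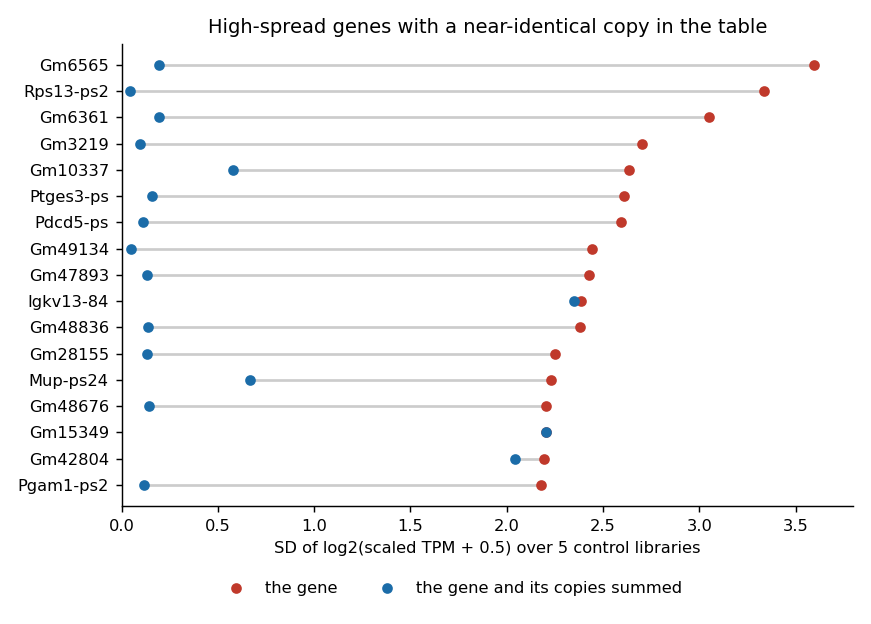
SD of log2(scaled TPM + 0.5) over the 5 control libraries for high-spread genes with a near-identical copy, for the gene alone and for its sum with the copies, joined by a line per gene. For 10 of the 17 genes the low SD of the sum is set by more abundant copies, while Gm6565 and Gm6361 made up 26.7 and 29.4% of a sum with an SD of 0.20.

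Protein-coding genes with a mean of at least 10 TPM gave a different picture. There were 9373 such genes, with a median SD of 0.13, of which 212 (2.26%) had an SD of at least 0.5 and 6 an SD of at least 1. Of the 212 genes, 159 were highest in replicate 5, compared with 24.2% of all 9373, and 142 were lowest in replicate 2, compared with 24.1%; 125 genes were both. The proximal tubule list contributed 17 of them, all highest in replicate 5. In replicate 5, 42 of the 9373 genes stood at least 2-fold above every other control library, against 0 or 1 in each of the other 4. Their names were mostly those of proximal tubule transport and metabolism genes, such as Slc22a6, the organic anion transporter, Fbp1, a gluconeogenic enzyme, and Mep1a, a brush border protease; this group was read from the names after their values were seen.

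The 6 coding genes with an SD of at least 1 included Gm10985, S100g, Gm45799, Pagr1a and Zbtb16. Zbtb16, a zinc finger transcription factor known to be induced by glucocorticoids, stood at 30.5, 15.1, 45.0, 17.1 and 87.8 TPM. It was highest in replicate 5 and lowest in replicate 2. Pagr1a had an SD of 1.23, which was 0.19 for its sum with its copy Gm42742. Gm45799 had an SD of 1.29, which was 0.91 for its sum with its copy Dnhd1, of which Gm45799 made up 88.4%. Gm10985 had an SD of 1.35, but its transcript of 81 bases had copies in 364 other genes of the table. It made up 0.206% of the sum with them, so that sum says nothing about Gm10985. The separate levels of these 3 genes are uncertain.

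Stress-inducible chaperone genes differed between control mice. Hspa1a and Hspa1b are neighboring genes of the inducible chaperone HSP70, and because their transcripts were identical at 2184 of 2201 aligned bases their separate levels are uncertain. Hspa1a stood at 17.5, 41.7, 26.9, 24.8 and 90.4 TPM and Hspa1b at 29.8, 47.5, 61.9, 28.9 and 131 TPM. Replicate 5 was highest for both, and their sum ranged from 47.4 to 222 TPM with an SD of 0.90. Hspb1, the small heat shock protein HSP27, was highest in replicate 3 instead, at 496, 856, 1238, 373 and 603 TPM, while the constitutive chaperone Hspa8 stood between 1081 and 1689 TPM with an SD of 0.28. The median SD of the 9 heat shock genes was 0.44, beside 0.16 over all genes. Heat shock factor 1 is known to induce such genes through inverted GAA repeats in their promoters. The letters GAANNTTC were searched on both strands in windows of 250 bases before to 50 after the start site from RefSeq (GRCm38.p6) and were found in 6 of the 7 heat shock genes with a window, beside 7.86% of 32851 promoters. The stretches around 1 match each are shown for 3 of the most variable members, with that match in capitals. They are Hspa1a at chr17:34972223-34972290 and Hspa1b at chr17:34959305-34959372, both on the minus strand, and Hspb1 at chr5:135887772-135887839 on the plus strand. Hspb1 held another match, 97 bases before the start site, which lies inside the printed stretch in lower case. A match is a description of sequence, not a site shown to be bound.
Hspa1a: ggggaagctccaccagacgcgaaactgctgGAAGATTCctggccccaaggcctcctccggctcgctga
Hspa1b: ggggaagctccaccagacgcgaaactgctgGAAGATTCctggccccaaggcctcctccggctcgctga
Hspb1: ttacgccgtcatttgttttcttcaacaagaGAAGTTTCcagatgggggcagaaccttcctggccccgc

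The stretches of Hspa1a and Hspa1b were identical over all 68 bases and their matches lay at the same distance before the start site.

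Circadian clock genes also differed between control mice. Of the 17 genes of the list 9 were highest in replicate 2 and lowest in replicate 3, 3 (Arntl, Clock and Npas2) were lowest in replicate 2 and highest in replicate 3, and 5 had another order. Over all 13910 genes, replicate 2 was highest for 25.0% and lowest for 25.0%, and replicate 3 highest for 18.1% and lowest for 16.6%. The clock is a feedback loop in which BMAL1 (Arntl) and CLOCK activate the Per and Cry genes and the output genes Dbp, Tef and Ciart through E-boxes, and PER and CRY proteins repress their own activation. Arntl stood at 5.39, 0.91, 9.53, 3.59 and 2.94 TPM, an SD of 1.05, and its partner Npas2 at 1.03, 0, 1.15, 0.24 and 0.34 TPM. Both were lowest in replicate 2 and highest in replicate 3. Ciart stood at 17.1, 35.0, 13.6, 19.1 and 18.1 TPM, Dbp at 472, 671, 320, 493 and 363 TPM and Cry1 at 11.1, 26.9, 10.2, 16.9 and 18.9 TPM. These 3 genes were among the 9 that were highest in replicate 2 and lowest in replicate 3, and they were chosen after their values were seen. Per1 departed from them, at 133, 132, 144, 61.3 and 148 TPM, with replicate 4 alone being low. The median SD was 0.38 over the 16 clock genes with a mean of at least 1 TPM, which leaves out Npas2. The time of day at which each mouse was killed was not given in the sources used here.

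The E-box letters CACGTG, which read the same on both strands, were found in the promoter windows of 5 of the 15 clock genes with one, namely Bhlhe41, Ciart, Cry1, Per1 and Tef, beside 7.15% of 32851 promoters. Ciart held 3 matches. Bhlhe41, Ciart, Cry1 and Tef were highest in replicate 2, whereas Per1 was not. Cry2, Dbp, Hlf, Nr1d2, Per2 and Per3 were also highest there but were not among the genes with a match. Other motifs were searched in the same windows. The D-box letters TTATGNAA were found in 2 of the 15 genes (Per1 and Per3), beside 3.38% of promoters. The RORE letters AGGTCA were found in 5 (Arntl, Clock, Nfil3, Nr1d2 and Per1), beside 16.3%. The stretches around 1 E-box match each of Ciart (GRCm38.p6 chr3:95882309-95882374) and Cry1 (chr10:85185079-85185144), both on the minus strand, are shown with the match in capitals. They were printed because both genes were highest in replicate 2.
Ciart: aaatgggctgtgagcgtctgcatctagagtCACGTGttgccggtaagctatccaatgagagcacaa
Cry1: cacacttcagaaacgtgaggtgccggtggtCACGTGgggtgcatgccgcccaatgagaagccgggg

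At the other end, many coding genes hardly differed between the mice. The lowest SD among genes with a mean of at least 10 TPM was that of Cnst, which encodes consortin, a trafficking protein of connexins, at 25.4, 25.8, 25.0, 25.2 and 24.3 TPM, an SD of 0.011. The other 9 genes of lowest spread were Ccdc127, Dennd4c, Ramac, Taldo1, Prelid1, Usp8, Bfar, Aqr and Eif3a, the last with an SD of 0.017. Commonly used reference genes summed to 8765 to 9152 TPM. Among them Ywhaz (SD 0.03) and Actb (0.04) varied least, and Gapdh varied most, at 607, 548, 586, 654 and 740 TPM with an SD of 0.19. Gapdh was highest in replicate 5 and lowest in replicate 2.

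The control libraries were compared with MN to see whether the leading genes and the class sums differ between the groups. The ranking was mostly shared: of the 100 most abundant control genes, 96 were among the 100 most abundant on day 1 of MN and 95 on day 5. By limma with Benjamini-Hochberg adjustment over 14322 genes (a call needed an adjusted p under 0.05 and a difference of more than 0.5 on the log2 scale in either direction), none of the 100 was called on day 1 (19 had an unadjusted limma p under 0.05), when 0.0908% of all genes were called (0.0559% higher), and 2 were called on day 5, when 3.21% were called (2.42% higher, 0.789% lower). Both comparisons share the control libraries. The 2 genes were higher on day 5: Sparc, a collagen-binding matrix protein, by 0.64 ± 0.06 on the log2 scale (SE, adjusted p = 3.02e-05 by limma) and Cdkn1c, the cyclin-dependent kinase inhibitor p57 of mature podocytes and one of the podocyte genes the study lists, by 0.72 ± 0.10 (adjusted p = 0.000708 by limma).

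Of the GBM genes, 5 of 12 were higher on day 5, namely Col4a1, Col4a2, Col4a5, Lamc1 and Nid2, and none was lower, beside 2.42% of all genes higher. Nid2 was higher by 0.91 ± 0.09 and Col4a1 by 0.85 ± 0.19 (log2 scale, SE, limma adjusted p = 5.03e-05 and 0.0191). With any 1 control library left out, 4 or 5 of the 12 GBM genes were higher. No podocyte marker of the 16 was called on day 5 by limma. Of them, 1 had a limma adjusted p under 0.05 but a difference too small for a call, and 5 had an unadjusted p under 0.05. Without control replicate 2, in which podocyte markers were lowest, 1 of 16 was called lower. Of the 10 podocyte genes listed by the study, which chose them on these samples so that their direction is not independent evidence, 6 were lower and 2 higher, and 8 lower and 2 higher without control replicate 2. Thsd7a was lower by 0.79 (SE 0.16, limma adjusted p = 0.0112). All 12 cell cycle genes were higher on day 5, from a control sum of 19.0 to 39.4 TPM.

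No class sum differed between MN and control after adjustment. An exact two-sided permutation test over libraries was used, with 126 splits and 0.00794 as its smallest possible p, and 10 tests were adjusted together. A single class whose sums were fully separated would have reached an adjusted p of 0.0794, so the design could not call 1 class alone. On day 1 the mean of the proximal tubule sum was higher by 0.64 on the log2 scale (exact p = 0.135, adjusted p = 0.675), with sums of 6320 to 10278 TPM in MN overlapping the 3885 to 11759 TPM of the controls. The distal sum was higher by 0.70 (exact p = 0.0476, adjusted p = 0.476). Podocyte sums differed by -0.07 on day 1 and -0.09 on day 5, less than the range between control libraries.

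The day 1 comparison depended on control replicate 5. Without it, the difference of the proximal tubule sum was 0.91 (exact p = 0.0286 of 70 splits, adjusted p = 0.190), and limma called 217 genes on day 1 in place of 13, 209 of them higher (1.46% of all genes tested), with 10 of the 13 shared. Of the 20 proximal tubule markers, 17 were then called higher, compared with 0 of 20 with all control libraries, where 16 had an unadjusted limma p under 0.05; Cyp4b1, Slc5a2 and Slc22a8 were not. Kap was then higher by 1.00 (limma adjusted p = 0.0326) and Gpx3 by 0.89 (adjusted p = 0.0443). All 20 markers and Gpx3 were highest among the control libraries in replicate 5. Leaving it out therefore lowers their control means in advance, and these calls are not independent evidence of a difference from MN. Leaving out any other control library gave 5 to 7 calls. Spread within the groups was similar, with a median log2 SD of 0.16 in controls, 0.16 on day 1 and 0.15 on day 5.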

How the data were processed

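Bulk RNA-Seq of glomeruli isolated from 13 mice was analysed from the deposited table of TPM per gene symbol. Per the submitters' notes, reads (150-bp paired-end, NovaSeq 6000) were checked with FastQC 0.11.9, trimmed with Trimmomatic 0.39 and quantified by the authors with kallisto 0.46.2 against an Ensembl GRCm39 transcriptome. Kallisto divides reads shared by near-identical transcripts by estimation, so the split between copies is less certain than their sum. TPM keeps no read depth, and counting errors could not be given.

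TPM values were scaled by median-of-ratios factors over 15772 genes (0.981 to 1.04 in the controls) and log2-transformed with a pseudocount of 0.5; levels in the text are unscaled TPM. Fold changes are on that scale and understate changes of low genes. Spread was the SD of these values over 5 control libraries for genes with a mean of at least 1 TPM. MN and control were compared with limma 3.58.1 (R 4.3.3; trend, all 3 groups, at least 1 TPM in at least 4 libraries, Benjamini-Hochberg) and class sums with exact permutation tests (scipy 1.17.1). The scripts were tested on simulated data. Copies were found with BLAST+ 2.17.0 among GENCODE M39 transcripts; 13591 of the 13910 symbols matched the annotation. Libraries are single mice. Some genes are not reported here.

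Members and gene lists were chosen with earlier results of these data known. Named genes were the 30 most abundant, the 30 of highest and 10 of lowest spread, all cell type markers, and of each other list the 4 most abundant members and those with an SD of at least 1; other genes named were chosen after their values were seen. Alternatives changed the pseudocount, scaling, filter, variance model, pairing and libraries. The log2 SD of 0.5, the coding genes and the summed copies were chosen after seeing the data.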

Additional observations from a re-analysis of the deposited data

Results flagged for a closer look

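A sample was marked when its gap to the nearest other sample of its group, divided by the range of the group, exceeded Dixon's 95% critical value (0.71 for 5 samples). Of 154 groups of values, 24 (15.6%) held such a sample, where chance marks about 1 in 20. Some of the genes tested were named for their high spread or after their values were seen. Genes of a list and their sum are also not independent. The share of marked groups can therefore not be compared with 1 in 20. Among the control libraries, 9 marks fell on replicate 2, 8 on replicate 4, 5 on replicate 5 and 0 on replicates 1 and 3.

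Control replicate 5 was far above the others for the summed proximal tubule markers (11759 TPM) and for 3 genes of that tubule segment, Kap (7313 TPM), Fbp1 (186 TPM) and Slc22a6 (61.9 TPM). Dennd4c, which otherwise hardly varied, was lowest there at 18.9 TPM.

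Control replicate 2 was far below the others for the summed podocyte markers (9275 TPM) and for the podocyte-expressed genes Col4a4 (107 TPM), Col4a5 (34.4 TPM) and Magi2 (85.0 TPM). It was far above them for the clock output gene Ciart (35.0 TPM), the adipocyte sum (7.01 TPM) with Cfd (5.08 TPM), the pseudogene Gm42804 (16.5 TPM) and the immunoglobulin segment Igkv13-84 (20.5 TPM).

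Control replicate 4 was far below the others for the Y-linked sum (37.6 TPM) and for each of its members, Ddx3y (16.3 TPM), Eif2s3y (12.4 TPM), Uty (4.58 TPM) and Kdm5d (4.33 TPM), and for Per1 (61.3 TPM). It was far above them for S100g (267 TPM) and Cd3e (0.986 TPM).

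In the MN groups, the podocyte sum of day 1 replicate 4 (12752 TPM) and the endothelial sum of day 5 replicate 1 (15425 TPM) stood above the other 3 of their groups.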

How the results depend on the processing

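Of the 10 differences of class sums between MN and control, 6 kept their direction under every alternative run; the exceptions were endothelial and mesangial markers on day 1 and proximal tubule and distal markers on day 5. On day 1 the endothelial difference of 0.02 (log2) became -0.0286 without further scaling, -0.0834 with quantile normalization and -0.00204 with the replicate number as a block. On day 5 the distal difference of 0.05 became -0.13 when the mean log2 value of the members was used, and the proximal tubule difference of -0.24 became 0.0293 with the block, in which control replicate 5 has no partner and 0.125 is the smallest possible p. Leaving out each library in turn, the difference ran on day 1 from -0.16 to -0.02 for podocyte, -0.0922 to 0.10 for endothelial, -0.11 to 0.00420 for mesangial, 0.49 to 0.91 for proximal tubule and 0.53 to 0.83 for distal markers. On day 5 it ran from -0.18 to -0.05, 0.00240 to 0.14, 0.02 to 0.13, -0.39 to 0.0293 (without control replicate 5) and -0.12 to 0.14 in the same order. The cause of these changes was not tested, other than that fewer libraries entered.

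The number of the 100 leading control genes called on day 1 ran from 0 to 2 over fits that left out a library, with 2 without control replicate 5, and was 2 in each such fit on day 5. Over all genes, day 1 gave 13 calls, 3 to 217 with a library left out (217 without control replicate 5), 149 with the replicate block, 2 with only the compared groups, 6 without a filter on low TPM and 7 without the trend; day 5 gave 460, 358 to 472 with a library left out and 348 with the block. Replicate numbers named different mice, and same-numbered samples did not deviate together (correlations of -0.00286 to 0.14 between control and day 1, and -0.18 to 0.02 between control and day 5), so the numbers do not pair the samples.

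The count of 374 high-spread genes became 625 without a filter on low TPM, 22 with at least 1 TPM in every control library, 20 with a mean of at least 10 TPM, 213 with the median absolute deviation (139 shared), 516 with a pseudocount of 0.1 and 263 with one of 1; leaving out a control library gave 353 to 400. With the choices made after seeing the data it was 1400 at an SD of 0.5 and 6 among coding genes with a mean of at least 10 TPM. The share of the 30 leading genes, 14.6%, became 11.6% without mitochondrial genes, 15.8% with the 5 pairs of copies summed, and 14.2 to 15.1% with a library left out. Read depth is unknown, which limits what can be said of values near 0.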

Other observations

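Some abundant symbols could not be placed in the annotation. Of the 100 most abundant control genes, 5 had no match: Atp5b, Gm10925, Gm11808, Slc9a3r2 and Olfr1033. Atp5b and Slc9a3r2 are older symbols of an ATP synthase subunit and a PDZ scaffold. Olfr1033, an olfactory receptor symbol, was listed at 1891 ± 279 TPM (SD, n = 5), rank 42, above the mean of Ehd3; it was named after its value was seen, and what its reads derive from was not tested.

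Immunoglobulin transcripts had a higher median spread between control mice than any of the cell type lists. The 24 segments with a mean of at least 1 TPM had a median log2 SD of 1.46, and the sum over all immunoglobulin symbols ran from 48.5 to 177 TPM.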
